A study of Mus musculus with 2 samples.

Results

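Cathepsins are proteases of the lysosome, the acidic compartment in which cells break down proteins taken up from outside or delivered from within. Most are cysteine proteases of the papain family, while Ctsd encodes an aspartic and Ctsa a serine protease. They are made as inactive precursors, reach the lysosome mainly through mannose 6-phosphate receptors and are activated at low pH. The cysteine proteases among them are held in check by cystatins. In neural tissue, Ctss is known as a protease of microglia and macrophages, whereas Ctsb, Ctsd and Ctsl are used by most cell types.

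The 8 cathepsin genes Ctsa, Ctsb, Ctsc, Ctsd, Ctsh, Ctsl, Ctss and Ctsz were taken by symbol from the deposited transcript table, and the values of a gene's transcripts were summed. All 8 were among the 15318 genes that could be used. RNA came from mouse retina at postnatal day 15, with 1 library per genotype. The control was Dnmt1 flox/flox, Dnmt3a flox/flox and Dnmt3b flox/flox without Rx-Cre. The triple mutant carried the same 3 pairs of floxed DNA methyltransferase alleles with Rx-Cre, in which regulatory sequence of the eye field gene Rx drives the recombinase. The strain label reads C57BL/6 in one and, for the mutant, C57BL/7. The labels do not say whether a library pooled several pups. There was no replicate, so each difference below is one between 2 libraries and was not tested.

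Values are FPKM, fragments per kilobase of transcript scaled to library size, which allow levels of different genes to be compared. Judged from the steps between the lowest values, 1 FPKM stood for about 48.3 fragments per kilobase of control transcript and 56.2 of mutant transcript. Bracketed ranges are 95% intervals that cover counting error only, not the spread between animals. Of the targeted genes, Dnmt1 had 21.7 FPKM with Cre absent and 11.6 with Cre present, Dnmt3a had 87.4 and 56.0, and Dnmt3b had 1.03 and 0.827. The rod genes Gnat1 (4266 and 3211 FPKM) and Sag (3931 and 3512) were high in both libraries. Summed FPKM of 12 pigment epithelium markers was 154 in the control against 8.90 in the mutant, and that of 13 lens markers was 209 and 9.56.

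Differences are given as log2 of mutant over control FPKM, with 1 added to each, and a gene is called past the size rule where this ratio is 1 or more, or -1 or less. Of the 8 cathepsins, 2 were higher in the mutant library by that rule, Ctss and Ctsh, and 0 were lower. Among all 13280 genes with at least 1 FPKM in a library, 1.84% passed it upward and 0.648% downward. In whole retina, more cells of a type and more RNA per cell cannot be told apart. The other 6 cathepsins lay between, and 7 of the 8 had a log2 ratio above 0, where 50% of all measured genes did. The median of the 8 was 0.39, beside a median of -2.0e-06 over all measured genes. The 8 were chosen as a family with earlier results of these libraries known.

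**Figure D1:**
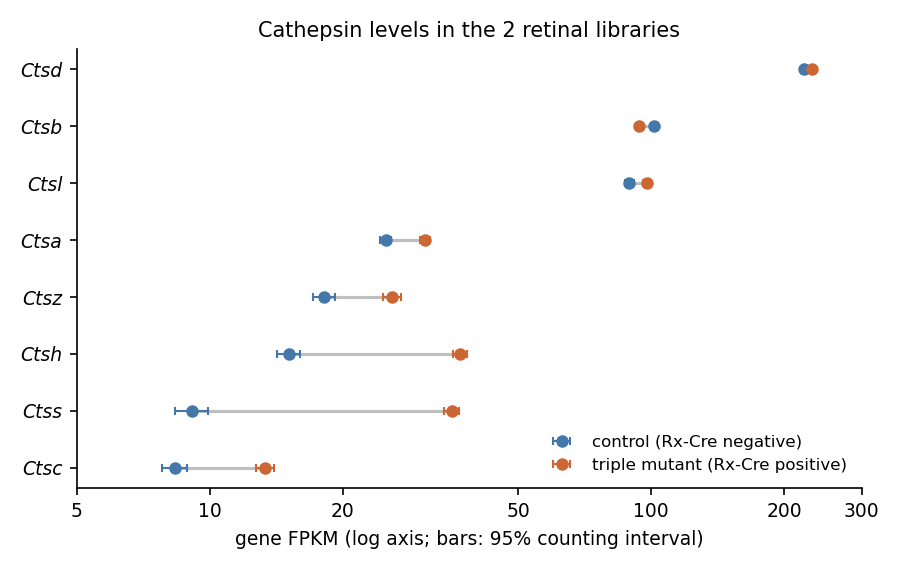
Gene FPKM of the 8 cathepsins on a log axis, in the control library (blue) and the triple mutant library (orange), with bars for the 95% counting interval. Ctss (9.11 and 35.3 FPKM) and Ctsh (15.1 and 36.9) are the pairs farthest apart, and the points of Ctsd (222 and 231) nearly coincide.

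Ctss encodes cathepsin S, which stays active at neutral pH and trims the invariant chain from class II molecules in antigen presenting cells. The gene lies on chromosome 3 from 95526786 to 95556403 (GRCm38, plus strand). The control library held 9.11 FPKM of it (8.35 to 9.92), the mutant library 35.3 (33.9 to 36.8). The mutant library was thus 3.88-fold higher (3.53 to 4.27), with a log2 ratio of 1.85, which ranked 88 from the top among the 13280 measured genes. About 531 fragments lay behind the control value and 2394 behind the mutant value.

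The signal of Ctss came from a pair of RefSeq transcripts that are nearly alike. In the annotation both have 8 exons, and they differ by 3 bases at the start of exon 2 and by 3 bases at the end of exon 8. NM_021281 stood at 8.13 FPKM in the control against 33.7 in the mutant, and NM_001267695 at 0.981 against 1.598. The first made up 89.2% of the gene's control value and 95.5% of its mutant value, a split that rests on few distinguishing bases. The authors' deposited table with gene symbols gives NM_021281 a log2 fold change of 2.05 and a q-value of 0.0715, and does not mark it as significant. The authors' deposited table without symbols gives it a q-value of 0.0330 and marks it as significant. In the authors' deposited tables, 0 of 9 tested transcripts of the 8 cathepsins were marked in the first and 1 in the second. Over all tested transcripts the marked share was 0.353% in the authors' deposited first table and 0.332% in the second. These q-values compare the 2 libraries and hold no estimate of the spread between animals.

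The window upstream of the Ctss start site is shown because Ctss had the highest ratio of the 8, together with that of Ctsc, the third highest and the next with an entry. RefSeq promoter entries (GRCm38.p6) matched 6 of the 8 genes, with Ctsb and Ctsh unmatched. Bases 250 to 1 before the start site were searched on both strands for 5 motifs. These were the E-box CACGTG, the CLEAR core TCACGTGA (which contains the E-box), the interferon response core GAAANNGAA, the PU.1-type site GAGGAAGT and the gamma-activated core TTCNNNGAA. Capitals mark matches to any of them.
Ctss, chr3:95526536-95526785, plus strand: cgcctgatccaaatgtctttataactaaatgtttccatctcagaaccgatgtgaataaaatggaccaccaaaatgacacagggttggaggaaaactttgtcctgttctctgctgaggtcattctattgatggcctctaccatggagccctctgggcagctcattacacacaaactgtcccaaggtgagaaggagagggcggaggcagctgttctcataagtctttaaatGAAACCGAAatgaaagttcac
Ctsc, chr7:88277835-88278084, plus strand: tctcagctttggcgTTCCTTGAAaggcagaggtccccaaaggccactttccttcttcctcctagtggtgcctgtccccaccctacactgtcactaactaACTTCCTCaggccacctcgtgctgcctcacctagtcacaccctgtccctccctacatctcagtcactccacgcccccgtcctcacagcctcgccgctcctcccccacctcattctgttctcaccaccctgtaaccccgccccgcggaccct
The Ctss window held 1 interferon response core, from base -21 to base -13 relative to the start site, and none of the other 4 motifs. Of 32851 RefSeq windows of the same length, 7.13% held that core. The Ctsc window held 1 PU.1-type site, found in 2.44% of windows, and 1 gamma-activated core, found in 7.02%. A match describes the letters only, since binding was not measured.

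Cytosines followed by guanine (CpG), the bases that DNA methyltransferases modify, were counted in the same windows. The Ctss window held 4 CpGs, the lowest of the 6 matched genes, and the median over all windows was 6. The Ctsd window, most of which lies inside the annotated gene, held 27, more than 91.4% of windows had. Between them, the Ctsl and Ctsz windows held 7 each, the Ctsc window 9 and the Ctsa window nearest to its measured transcript 10. Methylation was not measured in these libraries.

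Ctsh encodes cathepsin H, an aminopeptidase that also takes part in surfactant protein processing in lung. The gene lies on chromosome 9 from 90054152 to 90076089 (plus strand). Its level was 15.1 FPKM in the control (14.2 to 16.0), against 36.9 in the mutant (35.6 to 38.2). This made the mutant 2.44-fold higher (2.28 to 2.62), with a log2 ratio of 1.23 and rank 170 from the top. All of it came from the transcript NM_007801. The authors' deposited table with symbols gives that transcript a q-value of 0.296.

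Ctsc encodes dipeptidyl peptidase 1, which activates the serine proteases of granules in mast cells, neutrophils and cytotoxic lymphocytes. It lies on chromosome 7 from 88278085 to 88310888 (plus strand) and had 8.33 FPKM against 13.3 in the mutant, which was 1.6-fold higher (1.48 to 1.73). Its log2 ratio of 0.62 was below the size rule. Genes of such granules were near 0. The list held 10 granule genes, among them Prf1 and Cpa3, which encode a pore-forming protein and a carboxypeptidase. Of the 10, 0 reached 1 FPKM in either library, and they summed to 0.771 FPKM in the control, 0.807 in the mutant. Most of both sums was Prtn3, a serine protease gene of neutrophil granules, at 0.663 and 0.592 FPKM, and Elane was listed at 0 in both.

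Ctsz encodes cathepsin X, a carboxypeptidase. It lies on chromosome 2 from 174427493 to 174439039 (minus strand) and had 18.2 FPKM against 25.9 in the mutant, which was 1.43-fold higher (1.32 to 1.54). Ctsa encodes the protective protein that holds neuraminidase and beta-galactosidase in a complex in the lysosome. It lies on chromosome 2 from 164832873 to 164841032 (plus strand) and had 25.02 and 30.7 FPKM, 1.23-fold higher in the mutant (1.18 to 1.28). Of its partners in that complex, only Glb1 had an interval wholly below 1. Neu1 had 15.4 and 14.8 FPKM, a ratio of 0.963 (0.902 to 1.03), and Glb1 had 6.41 and 5.45, a ratio of 0.851 (0.764 to 0.947). Galns, also associated with the complex, had a ratio of 1.61 (1.39 to 1.87). The Ctsa annotation shares 495 exon bases with Pltp on the opposite strand, which stood at 21.0 FPKM in the control against 10.8 in the mutant. No source used here says whether fragments were counted by strand, so fragments of this stretch cannot be told apart.

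The most abundant members differed least. Ctsd, the main aspartic protease of lysosomes, lies on chromosome 7 from 142375911 to 142388038 (minus strand). Its control value was 222 FPKM (219 to 225) and its mutant value 231 (228 to 234), a ratio of 1.04 (1.02 to 1.06). Ctsl, an endopeptidase with broad substrate use, lies on chromosome 13 from 64359337 to 64370890 (minus strand) and had 89.3 and 98.0 FPKM, a ratio of 1.10 (1.07 to 1.13). Ctsb, which cuts both within chains and at their carboxyl ends, lies on chromosome 14 from 63122462 to 63145923 (plus strand) and had 102 and 93.8 FPKM, a ratio of 0.922 (0.905 to 0.939). It was the only one of the 8 with a ratio below 1. All 3 log2 ratios (0.06, 0.13 and -0.12) lay inside the interquartile range of all measured genes, -0.16 to 0.15. Ctsb shares 774 exon bases with Fdft1 on the opposite strand, which stood at 24.0 FPKM in the control against 19.8 in the mutant.

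The E-box and CLEAR matches are shown in 30-base stretches, because the CLEAR element is known as the site of the lysosomal regulator TFEB. They were found before the start sites listed for Ctsd and Ctsl and before the second of those listed for Ctsa. All 3 stretches lie inside the annotated spans of their genes, not before them.
Ctsd, chr7:142387908-142387937, minus strand: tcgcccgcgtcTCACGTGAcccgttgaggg
Ctsa, chr2:164833743-164833772, plus strand: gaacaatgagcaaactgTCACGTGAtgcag
Ctsl, chr13:64370739-64370768, minus strand: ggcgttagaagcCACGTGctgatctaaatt
The CLEAR core was in 0.785% of all windows and the E-box in 6.02%. The Ctsd window held a further E-box, from base -245 to base -240. The start site listed for Ctsd lies 211 bases downstream of the annotated start of its measured transcript. That listed for Ctsl lies 214 bases upstream of the start of its own. The first of the Ctsa start sites, 29 bases from the annotated start of its measured transcript, had no match to any motif in its window. None of the 3 genes shown was past the size rule.

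**Figure D2:**
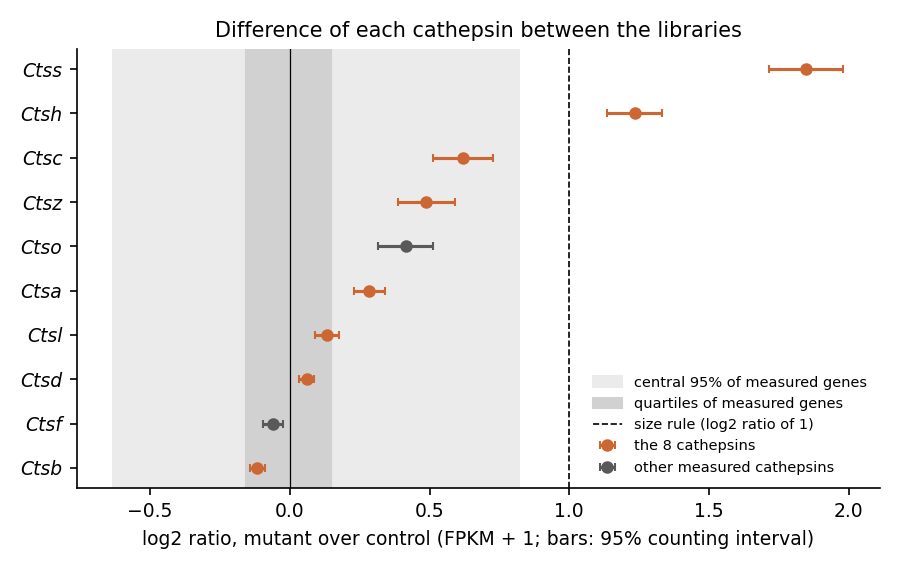
Log2 ratio of mutant to control (FPKM + 1) for the 8 cathepsins (orange) and the 2 other measured cathepsins (grey), with 95% counting intervals, over bands for the quartiles (-0.16 to 0.15) and the central 95% (-0.63 to 0.82) of measured genes. Only Ctss (1.85) and Ctsh (1.23) lie beyond the dashed line of the size rule and outside the wider band.

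The order of levels also differed between the libraries. In the control it ran Ctsd, Ctsb, Ctsl, Ctsa, Ctsz, Ctsh, Ctss and Ctsc, and only the intervals of the neighbours Ctss and Ctsc overlapped. In the mutant it ran Ctsd, Ctsl, Ctsb, Ctsh, Ctss, Ctsa, Ctsz and Ctsc, and only those of Ctsh and Ctss overlapped. Summed over the 8 genes, the control held 488 FPKM, the mutant 565. Ctsd made up 45.4% of the control sum, and 40.9% of the mutant sum. Ctss made up 1.87% and 6.25%, and Ctsh 3.09% and 6.52%. For each unit of Ctss FPKM there were 24.3 of Ctsd in the control, against 6.54 in the mutant.

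Of 15 other cathepsin genes, 2 were measured, 3 had lower values and 10 were listed at 0 in both libraries. Ctsf, a cysteine protease gene with wide expression, was the second most abundant cathepsin of the control at 124 FPKM and had 119 in the mutant, a ratio of 0.959 (0.935 to 0.984). Ctso had 6.92 and 9.56 FPKM, a ratio of 1.38 (1.28 to 1.49). Ctsk, the collagen-degrading protease of osteoclasts, had 0.874 and 0.696 FPKM, Ctsw, known from cytotoxic lymphocytes, had 0.712 and 0.892, and Ctse had 0.0526 and 0.162. Ctsg, a granule protease gene of neutrophils, was among those listed at 0.

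Inhibitors were compared next. Of 25 listed, 7 were measured, 1 passed the size rule upward, 0 passed it downward, and the log2 ratios had a median of 0.17 (0.11 with a pseudocount of 5, 0.26 with the top transcript of each gene). The secreted inhibitor cystatin C, encoded by Cst3, had 952 FPKM against 1235 in the mutant, a ratio of 1.30 (1.28 to 1.32). It exceeded the sum of the 8 cathepsins in both libraries, by 1.95-fold in the control, by 2.19-fold in the mutant. Relative to Ctss alone, Cst3 was 104-fold higher in the control but 34.96-fold in the mutant. The intracellular inhibitor Cstb had 40.1 and 45.2 FPKM, and Cst7, an inhibitor known from activated microglia, had 0.0749 and 0.301. The serpin genes Serpina3n (7.86 and 6.47 FPKM), Serpinb6a (5.46 and 6.21) and Serpinb9 (1.32 and 1.78) were below the size rule, as was Bin1 (149 and 161), an endocytic adaptor gene that the list also held and that is not known as an inhibitor. The gene past the rule was Cd74, whose product is the invariant chain, a substrate of cathepsin S that in 1 splice form also inhibits cathepsin L. It had 0.291 FPKM against 22.1 in the mutant, which was 75.8-fold higher (45.8 to 136). The filter kept Cd74 for its mutant level alone.

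Partners and substrates beyond Cd74 differed less. Lgmn, the asparaginyl endopeptidase that processes several cathepsins, had 117 and 135 FPKM. Psap, the saposin precursor cut by cathepsin D, had 382 and 366, and App, the amyloid precursor, had 222 and 213. Grn, the progranulin precursor, had 24.9 and 34.7 FPKM, and the thiol reductase gene Ifi30 had 4.34 and 7.45. Galns, a sulfatase associated with the Ctsa complex, had 2.41 and 3.89 FPKM, and the tripeptidyl peptidase gene Tpp1 had 58.6 and 52.5. Tlr3, an endosomal receptor that cathepsins cleave, had 0.955 and 2.88 FPKM, with a log2 ratio of 0.99 just below the size rule. The related receptors Tlr7 (0.0920 and 0.437) and Tlr9 (0.168 and 0.468) stayed under 1 FPKM. In all, 11 of 13 genes of this list were measured, 1 was higher by the rule, 0 were lower, and the median was 0.20. That median was -0.05 among genes of at least 5 FPKM and 0.33 with no filter, and Tlr3 passed the rule with a pseudocount of 0.1 and in the second deposited table. The filter kept Cd74 and Tlr3 for their mutant level alone.

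The rest of the lysosome was compared to see whether its genes shared the direction of Ctss and Ctsh. Of 37 other measured lysosomal hydrolases, 0 were past the size rule, 16 lay above 0 and 21 below, and the median log2 ratio was -0.02. The highest ratios were those of Fuca1 (15.0 and 24.1 FPKM) and Hyal1 (1.23 and 2.39), which cut sugar chains. The lowest was that of Gaa, the acid glucosidase gene, with 45.5 and 31.8 FPKM. The V-ATPase that acidifies the lysosome had 17 measured subunits, 0 of them past the rule, with -0.04 as their median. Its highest ratio was that of Atp6v0e (14.9 and 19.7 FPKM), and its lowest that of Atp6v1g2 (107 and 86.2). None of 16 sorting genes passed (0 of 16), and their median was -0.03. Among them, the mannose 6-phosphate receptor genes M6pr (32.2 and 36.0 FPKM) and Igf2r (6.30 and 5.98) differed little. Cln6 (21.3 and 29.6 FPKM) had the highest ratio of that list. In the second deposited table these 3 medians lay just above 0, at 0.03 for hydrolases, 0.02 for the V-ATPase and 0.03 for sorting genes.

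Of 17 lysosomal membrane and cofactor genes, 1 was higher by the rule, 0 were lower, and the median was 0.21. The gene past the rule was Laptm5, a lysosomal protein of blood-derived cells, with 2.60 and 8.22 FPKM. Cd68 (1.14 and 3.10 FPKM) and the macrophage metal transporter gene Slc11a1 (0.327 and 1.26) followed, both of them myeloid genes. With a pseudocount of 5 no gene of this list passed (0), with 0.1 these 3 did, and in the second deposited table Laptm5 and Cd68 did. The widely used Lamp1 (125 and 143 FPKM) and Lamp2 (26.2 and 32.8) differed less. Among transcription factors, Tfeb had 4.88 and 5.02 FPKM and Tfe3 had 16.5 and 17.9. Irf8, a factor of myeloid cells, was the 1 of 6 measured past the rule, at 0.912 and 5.22 FPKM. Spi1, which encodes PU.1, had 0.615 and 2.11 FPKM and joined it with a pseudocount of 0.1, while with 5 neither passed. The filter kept Irf8, Spi1 and Slc11a1 for their mutant level alone. Mitf, a factor of pigment cells, had 1.57 and 0.984 FPKM.

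**Figure D3:**
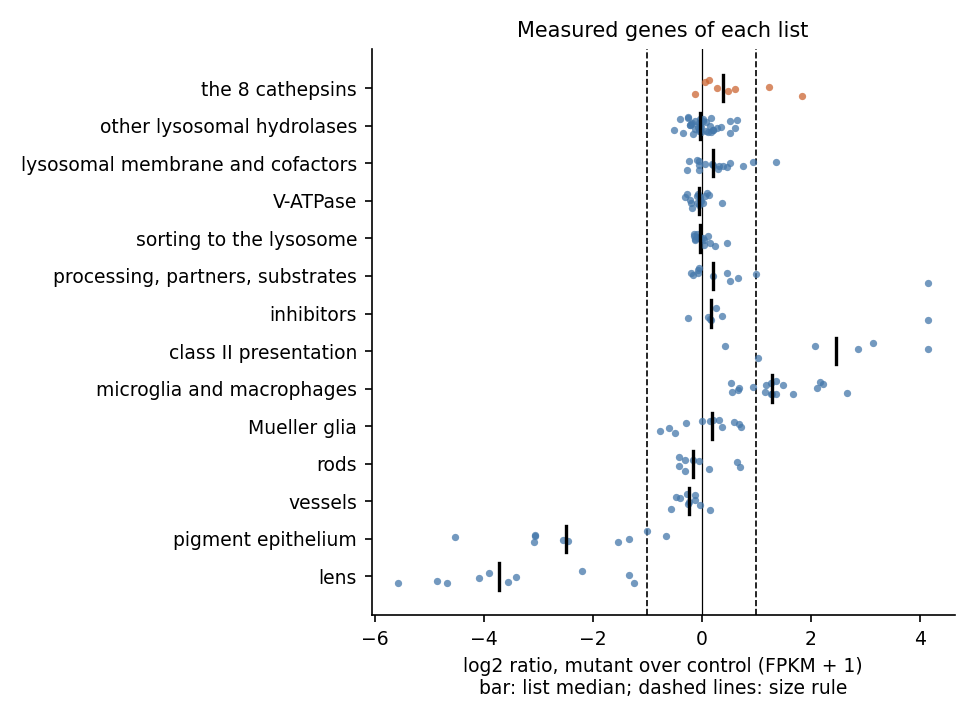
Log2 ratio of mutant to control (FPKM + 1) for each measured gene of 14 lists (points; vertical jitter only), with the list median as a bar and the size rule as dashed lines. The cathepsin median is 0.39, the medians of other hydrolases (-0.02), V-ATPase (-0.04) and sorting (-0.03) sit near 0, and those of microglia (1.29) and class II genes (2.47) lie to the right.

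The measured markers of microglia and macrophages were also all higher in the mutant library, though 2 libraries cannot show whether genes vary together. Of 20 listed, 18 were measured, 13 passed the size rule upward, 0 passed it downward, and none was listed at 0. With a pseudocount of 5 FPKM, which shrinks the ratios of low genes, 4 passed it. Their median log2 ratio was 1.29 (0.76 with a pseudocount of 5), and their summed FPKM was 43.8 in the control against 175 in the mutant. As FPKM ratios, the 18 ran from 1.69 (P2ry12) to 12.7 (Lyz2), with a median of 3.16. Among them, Lyz2 and Aif1 were under 1 FPKM in the control, so the filter kept them for their mutant level alone. The ratio of Ctss, 3.88, was exceeded by 6 of the 18, and that of Ctsh, 2.44, by 14. All 18 exceeded the ratio of Ctsc, 1.6 (1.48 to 1.73), although the intervals of P2ry12 (1.42 to 2.03), Tmem119 (1.71 to 2.63) and P2ry13 (1.70 to 2.99) overlapped it. That of P2ry12 also overlapped the interval of Ctsz. Per unit of the complement gene C1qa (5.84 and 31.2 FPKM), Ctss stood at 1.56 in the control, 1.13 in the mutant. Per unit of the receptor gene Csf1r (4.35 and 11.2), it stood at 2.09 and 3.16. As background, microglia arise from yolk sac precursors and not from the retinal lineage in which Rx is active. The part of these cells in the cathepsin values was not tested.

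**Figure D4:**
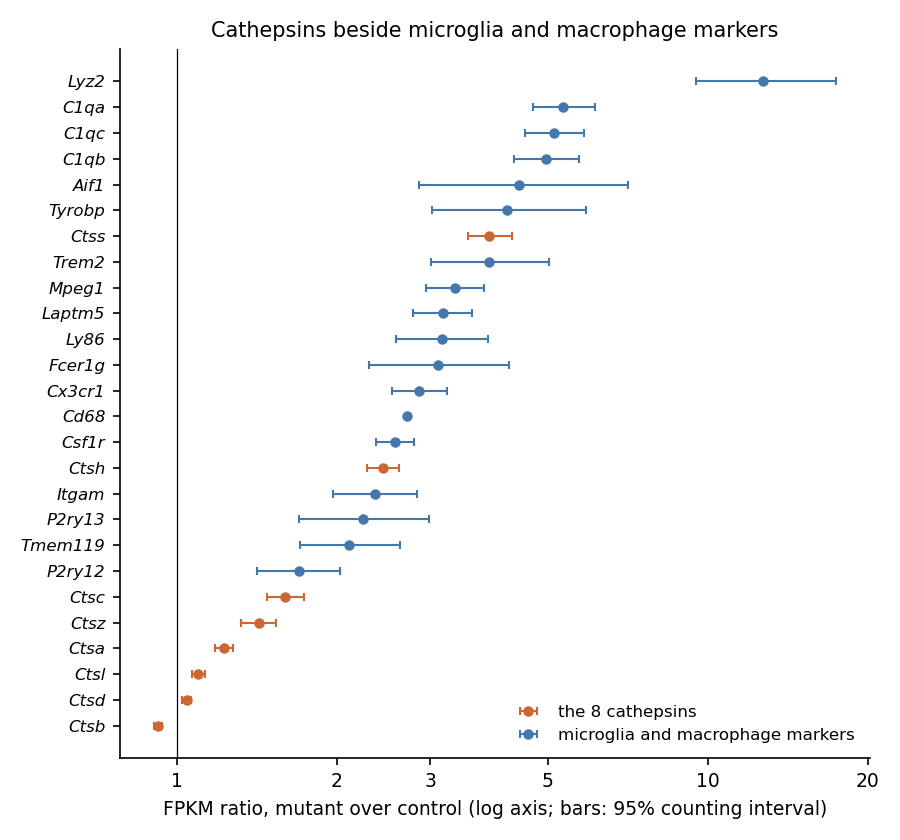
FPKM ratio of mutant to control on a log axis for the 8 cathepsins (orange) and 18 measured microglia and macrophage markers (blue), with 95% counting intervals (none for Cd68, whose transcript length was not matched). Ctss (3.88) and Ctsh (2.44) lie among the markers, and the points of the other 6 cathepsins lie below all of them, with the interval of Ctsc overlapping those of P2ry12, P2ry13 and Tmem119, and that of Ctsz overlapping P2ry12.

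Class II presentation genes, on whose pathway cathepsin S acts, numbered 10 in the list, with 6 measured. The size rule placed 5 of the 6 higher and 0 lower, and the median of the 6 was 2.47. Each of the 5 was under 1 FPKM in the control, so the filter kept them for their mutant level alone. The other 4 had no row of status OK, so the setting without a filter could not change this count or median. The median was 3.86 with a pseudocount of 0.1 and 1.02 with 5, and 3 genes were higher with a pseudocount of 5 or among genes of at least 5 FPKM. H2-Aa had 0.0454 and 6.67 FPKM, H2-Ab1 had 0.739 and 14.5, H2-Eb1 had 0.260 and 4.30, and the peptide editor gene H2-DMb1 had 0.220 and 1.51. H2-DMa, at 2.35 and 3.504 FPKM, was below the size rule. Their transactivator gene Ciita had 0.130 and 0.211.

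Other cell types that could carry cathepsin RNA were read from their markers. Lymphocyte and granulocyte markers were near 0: of 14, 0 reached 1 FPKM in a library, 7 were listed at 0 in the control, 5 in the mutant, and their summed FPKM was 1.31 and 1.91. Pigment epithelium, which digests photoreceptor outer segments and is known to be rich in cathepsin D, had 10 measured markers, 9 of them lower by the rule and 0 higher, among them Rpe65 (5.16 and 0.126 FPKM). With a pseudocount of 5, 5 of them were lower by the rule. Ctsd differed by a ratio of 1.04 beside that. Its part in the Ctsd values was not tested. All 10 measured lens markers were lower by the size rule. Of 12 Mueller glia markers 0 passed the rule, their median was 0.18, with Slc1a3 at 75.6 and 122 FPKM, Apoe at 655 and 988, and Glul at 952 and 561. Of 10 vascular markers 0 passed (median -0.24, and -0.15 with a pseudocount of 5), and of 9 rod markers 0 passed (median -0.16, and -0.10 in the second deposited table).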

How the data were processed

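RNA from mouse retina at postnatal day 15 was sequenced, with 1 control and 1 triple mutant library. Per the submitters' processing notes, the authors used TopHat2 2.0.8, Cuffdiff 2.1.1 and mm10. No source used here names the annotation, read layout or strandedness. Each of the 2 tables holds the authors' FPKM estimates by RefSeq transcript, per the file headers. The deposited tables also hold a log2 fold change and p-values and q-values by the authors, per the file headers. The first table (30608 rows) has symbols. In the second, which covers the same libraries, the median log2 shift from the first was -0.04 for the control and 0.02 for the mutant.

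Gene FPKM was summed over transcripts, for genes with at least 1 row of status OK and none failed or with excessive data (pandas 2.3.3). Genes of at least 1 FPKM in a library counted as measured. With 1 library per genotype no test was run. Alternatives were pseudocounts of 0.1 and 5, no filter or 5 FPKM, the second table, centring, the top transcript and rows of status OK. Fragments were recovered from FPKM steps in transcripts of 3000 bases or more (74.2% of the control's and 71.4% of the mutant's low values were whole within 10% of a step, with a fragment length of 150 bases), using GENCODE M21 lengths matched by RefSeq identifier. Intervals are exact Poisson for levels and Clopper-Pearson for ratios (scipy 1.17.1). The size rule and the ratio intervals were tried on simulated fragments with counting error alone. That simulation held no spread between animals, so it cannot show whether the intervals would cover such spread. Coordinates are from GENCODE M21. The cathepsins and the 18 gene lists were chosen with earlier results of these data known. Genes were named by a rule: the 8 cathepsins, every measured other cathepsin, inhibitor, partner and substrate, and up to 4 genes of each other list with the largest ratios; Cst7, Tlr7, Tlr9, Ctsk, Ctsw, Ctse, Ctsg, Prtn3, Elane, Lamp1, Lamp2, Tfeb, Tfe3, Ciita and other genes outside it were chosen for their role after values were seen. Of the listed genes, 1 is not reported here and was left out of the list counts.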

Additional observations from a re-analysis of the deposited data

How the results depend on the processing

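Ctss and Ctsh were past the size rule in the main setting and in all 8 alternatives, with log2 ratios of 1.52 to 1.94 and 1.06 to 1.29. None of the other 6 cathepsins was past it in any. The filters, centring and rows of status OK left the ratios of Ctss and Ctsh at 1.85 and 1.23, and could hardly have changed them. The pseudocounts and the second table moved both ratios, and the top transcript moved only that of Ctss. No cathepsin of the 8 changed sign, and their median ran from 0.33 (pseudocount of 5) to 0.44 (second table). In the second table Ctsb stood at -0.06 (reported value -0.12), Ctsd at 0.12 (0.06) and Ctsf at 0.000594779 (-0.06). The count of all genes depended on the setting: against 245 higher and 86 lower, there were 390 and 180 with a pseudocount of 0.1, 92 and 33 with 5, and 156 and 56 among genes of at least 5 FPKM. Of all listed genes, 21 were higher, and 9 with a pseudocount of 5. Ratios of single cathepsins and list medians were held against their counting intervals, and counts of list genes against a factor of 1.5. By that measure 400 values under the alternatives stayed within bounds and 40 did not, and 0 values past the size rule changed sign. Many of the 400 were counts of 0 set against 0, or values that the setting could hardly change. The tally is therefore no measure of how firm the results are. The cause of the 40 was not tested. No paired analysis was possible because each genotype had 1 library, and for the same reason no library could be left out. Depth limits the low genes: 3 fragments over 2 kb correspond to 0.0311 FPKM in the control, 0.0267 in the mutant.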
